A study of Mus musculus with 8 samples.

Results

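The histone lysine methyltransferases (writers) and demethylases (erasers) were compared between mouse CD8 T cells edited at Carm1 and control cells. They were taken by name, as protein-coding genes whose symbols begin with Kmt2, Kmt5, Setd, Nsd1 to Nsd3, Ehmt, Suv39h or Kdm1 to Kdm8, with Kdm5d left out. This gave 42 of the 49315 genes in the files, 25 writers and 17 erasers. The rule goes by name and uses no measured value, but it was set with earlier results of these data known. The cells were naive CD8 T cells of OT-I CD45.1 mice, whose transgenic T cell receptor recognises an ovalbumin peptide, isolated by negative selection from spleen and lymph nodes and grown with 2.5 ng/ml IL-7 and 50 ng/ml IL-15. Both groups were nucleofected for CRISPR-Cas9 editing, with a crRNA against the bacterial gene LacZ in the 4 libraries called Control KO and against Carm1 in the 4 called Carm1 KO, and RNA was taken 7 days later. The series text describes both groups as co-cultured with B16F10-Ova melanoma cells, which the protocols of the libraries do not mention. The labels give neither age nor sex of the mice, and they describe edited populations rather than clones. They call the 4 libraries of a group technical replicates, so every SD, SE and p-value here measures the spread between such libraries and may leave out that between cultures or mice.

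Writers place methyl groups from S-adenosylmethionine on particular lysines of histones. Methylation of H3K4 and H3K36 marks promoters, enhancers and transcribed gene bodies, whereas that of H3K9, H3K27 and H4K20 is linked to silent chromatin and to chromosome compaction. Erasers remove the marks, the Kdm1 enzymes by an FAD-dependent oxidation and the JmjC enzymes with 2-oxoglutarate and iron. In CD8 T cells such marks take part in closing naive and memory genes and opening effector genes. CARM1 itself methylates arginines and acts as a transcriptional coactivator.

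Total counts were 38768760 to 41439998 per control library and 37556330 to 39988442 per Carm1 KO library. Carm1 itself was at 94.4, 95.9, 96.9 and 96.3 CPM (counts relative to the library's total, with TMM factors) in the control libraries and at 32.8, 33.2, 33.0 and 32.1 CPM in the Carm1 KO libraries, a log2 fold change of -1.55 (SE 0.0273, edgeR adjusted p = 1.6e-37). The labels report loss of the protein by western blot. Of 10 T cell markers 9 rose and 1 fell, and their summed level was 6779 to 6954 CPM in control and 10477 to 10959 CPM in Carm1 KO libraries. Of 9 myeloid markers 8 fell and 1 rose, and they summed to 113 to 118 CPM in control and 8.07 to 8.82 CPM in Carm1 KO libraries, Lyz2 falling from 83.1 to 0.148 CPM. Of 8 B cell markers 4 could be tested, and 3 rose and 1 fell. Ighm rose from 254 to 925 CPM, Cd79b from 5.71 to 17.1 CPM and Cd79a from 0.460 to 1.93 CPM, and Igkc fell from 17.5 to 0.306 CPM. Their summed level was 274 to 281 CPM in control and 931 to 957 CPM in Carm1 KO libraries. Tyr, Tyrp1, Dct and Sox10, which define melanoma cells, had 0 counts in all 8 libraries, while the other melanoma list genes with more than a stray count, Pmel and Mitf, rose from 3.43 to 12.7 CPM and from 0.788 to 1.91 CPM. Of 5 CD4 T cell and NK cell markers 2 rose and 3 fell, Eomes, which effector CD8 T cells also express, from 173 to 17.7 CPM. Both Xist and the Y-linked Ddx3y were present in every library, Xist at 103 ± 3.69 (SD, n = 4) and 189 ± 11.5 CPM and Ddx3y at 26.3 ± 0.547 and 90.7 ± 3.31 CPM in control and Carm1 KO libraries. The part of these other differences in the values below was not tested. In bulk RNA, fewer cells of a type and less RNA per cell cannot be told apart.

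All 42 genes passed the filter on low counts and were tested, Kdm4d by its level in the Carm1 KO libraries. In Carm1 KO cells 22 rose, 19 fell and 1, Kdm6a, did not pass, with adjusted p under 0.05 (edgeR quasi-likelihood test, Benjamini-Hochberg adjustment over 14970 genes). The background was as broad, since 87.7% of all tested genes passed, 44.5% rising and 43.2% falling. A count of calls among the enzymes is therefore near that of any gene, and size and direction carry the description. The median log2 fold change was 0.12 over the 42 genes and 0.02 over all tested genes, and the median of its absolute size was 0.48 against 0.69. Changes of at least 2-fold were seen in 5 rising and 5 falling enzymes, 23.8% of the 42. Among all tested genes 35.7% changed by as much, 20.5% rising and 15.2% falling. All tested genes include 2297 with means under 1 CPM in both groups, and no enzyme was that low. These shares and medians are therefore not compared at like levels. With upper-quartile factors the enzymes at 2-fold were 9 rising and 3 falling, and with library totals alone 8 rising. The control and Carm1 KO libraries did not overlap for 39 of the 42, against 83.4% of all tested genes. The 3 whose ranges overlapped were Kdm6a, Kmt2b and Setd2. The split depended on the scaling of the libraries, being 27 higher and 14 lower with upper-quartile factors and 25 higher and 15 lower with library totals alone, and the same scalings gave 8004 and 7651 higher and 5121 and 5457 lower over all genes. They moved the median of all genes by 0.21 and 0.16 on the log2 scale.

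Of the 25 writers, 13 rose, 12 fell and 9 changed at least 2-fold. That is 36% of the writers, beside 35.7% of all tested genes, and their median absolute log2 fold change was 0.56, beside 0.69. All tested genes include many at lower levels than the enzymes. With a filter of 5 CPM in 4 libraries, 1543 genes were at least 2-fold higher and 1270 lower among 10171 tested, a smaller share. Of the 17 erasers, 9 rose, 7 fell and only Kdm4d changed at least 2-fold, which is 5.88%, with a median absolute log2 fold change of 0.41. With upper-quartile factors the splits were 15 higher and 9 lower writers, and 12 higher and 5 lower erasers. Erasers at least 2-fold higher were then 3, or 2 with library totals alone. The difference between the classes is given as counts and medians and was not tested.

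**Figure D1:**
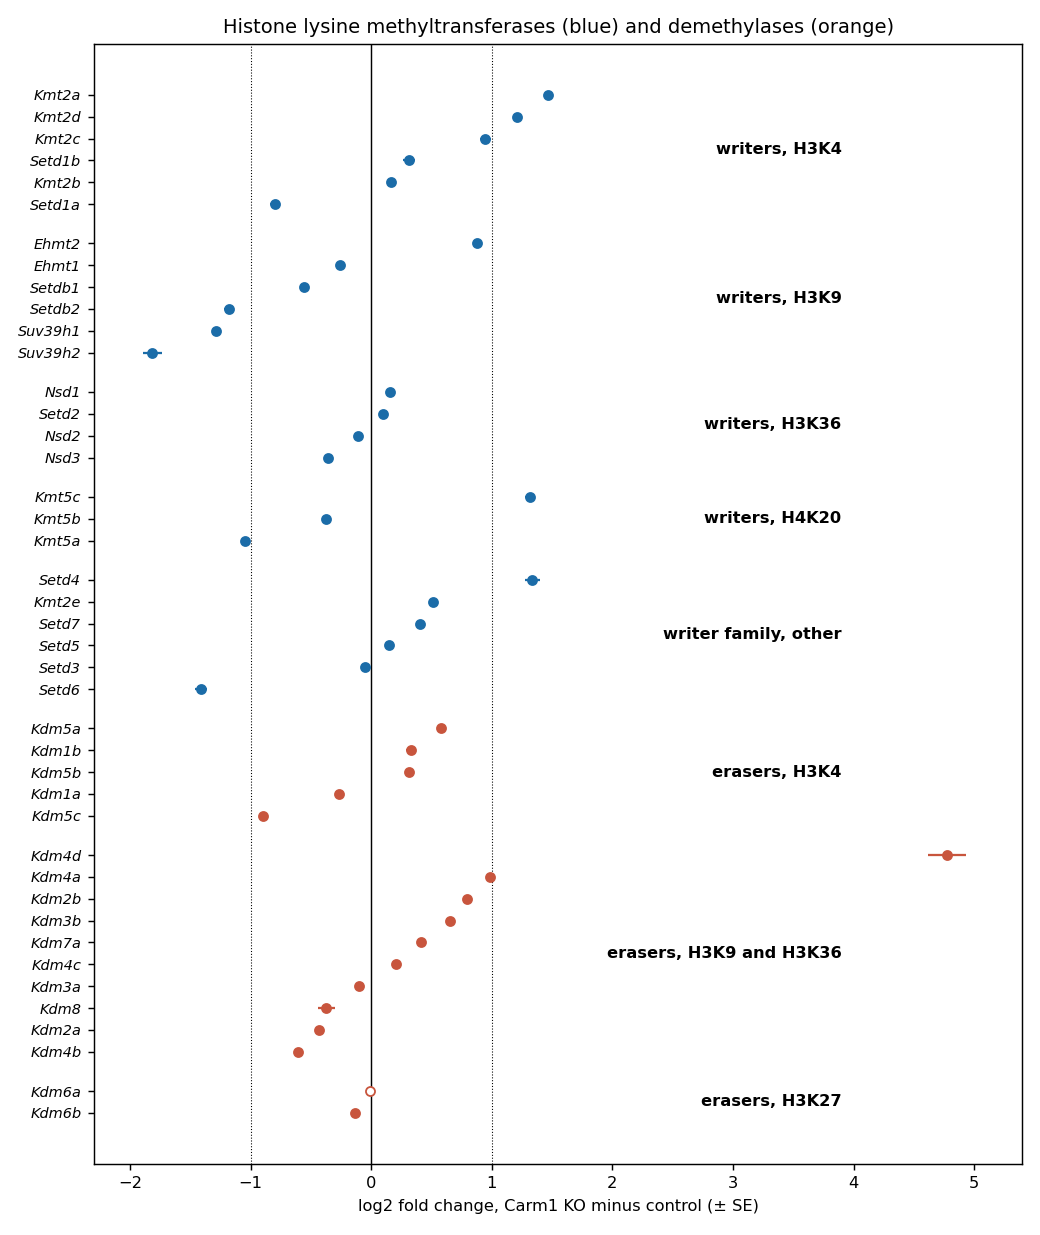
Log2 fold change, Carm1 KO minus control, of each of the 42 enzymes, grouped by the histone lysine it acts on, with bars of 1 SE from the edgeR fit, dotted lines at 2-fold and an open point for Kdm6a, which did not pass. The H3K4 writers lie mostly above 0, the H3K9 writers mostly below 0 apart from Ehmt2, and Kdm4d stands at 4.77.

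The writers of H3K4 moved towards more RNA of the large MLL enzymes. Of 6 genes, Kmt2a, Kmt2b, Kmt2c, Kmt2d and Setd1b rose and Setd1a fell. The median was 0.63 on the log2 scale, and this split was the same under every scaling tried. Kmt2a (ENSMUSG00000002028, chr9:44803355-44881296, minus strand), which encodes the H3K4 methyltransferase MLL1 that maintains Hox gene expression, was at 123, 121, 124 and 125 CPM in the control libraries and 309.6, 355, 357 and 342 CPM in the Carm1 KO libraries. The lowest Carm1 KO library was more than 2-fold above the highest control library, and the fitted rise was 2.76-fold (log2 fold change 1.47, SE 0.0375, adjusted p = 5.9e-15). Kmt2d (ENSMUSG00000048154, chr15:98831669-98871204, minus strand), an enzyme of H3K4 monomethylation at enhancers, was at 194, 193, 194 and 204 CPM in the control libraries and 421, 459, 479 and 449 CPM in the Carm1 KO libraries. The 2 groups were again apart, by 2.31-fold (log2 fold change 1.20, SE 0.0312, adjusted p = 3.0e-19). Its partner in enhancer methylation, Kmt2c, was at 90.1, 81.7, 86.8 and 89.5 CPM in the control libraries and 154, 177, 175 and 165 CPM in the Carm1 KO libraries, a rise of 1.93-fold (log2 fold change 0.95, SE 0.0434, adjusted p = 1.3e-10).

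The other H3K4 writers changed less, and Setd1a went the other way. Kmt2b, a close relative of Kmt2a, was at 128 ± 3.84 and 144 ± 8.54 CPM, with overlapping ranges and a log2 fold change of 0.17. Setd1b went from 58.5 ± 2.37 to 72.5 ± 5.29 CPM (log2 fold change 0.31). Setd1a (ENSMUSG00000042308, chr7:127776670-127800122, plus strand), the catalytic subunit of the SET1A complex that makes much of the promoter H3K4 trimethylation, was at 40.9, 41.7, 40.6 and 43.4 CPM in the control libraries and 23.9, 22.8, 25.6 and 23.1 CPM in the Carm1 KO libraries, and all 4 Carm1 KO libraries lay below all control libraries (log2 fold change -0.80, SE 0.0381, adjusted p = 3.0e-22). Of its 6795 exon bases, 3523 are shared with the annotated gene Gm49388 on the same strand, which held 14 counts over all 8 libraries. Per kilobase, the summed level of the 6 H3K4 writers went from 45.9 ± 1.00 to 76.0 ± 3.93 CPM per kb.

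The non-catalytic partners listed for these enzymes went down while most catalytic subunits went up. Of 12 listed subunits of the COMPASS complexes that hold the H3K4 writers, 11 could be tested. All 11 fell (median -0.61 on the log2 scale), beside 43.2% of all tested genes. The list does not hold every subunit. Kdm6a, counted here among the erasers, is not in it and did not pass (log2 fold change -0.01). Wdr5, a scaffold common to all these complexes, fell from 96.0 ± 0.956 to 46.8 ± 0.440 CPM (log2 fold change -1.04), and Wdr82, a subunit of the SETD1 complexes, from 371 ± 4.24 to 182 ± 5.92 CPM (log2 fold change -1.02). Hcfc1, a chromatin adaptor of several of them, fell from 213 ± 4.07 to 124 ± 3.71 CPM. Psip1, which tethers menin and MLL1 to chromatin, had the smallest fall, from 151 ± 6.58 to 126 ± 4.86 CPM (log2 fold change -0.27). With upper-quartile factors 8 of the 11 fell and 3 did not pass, and these were Men1, Psip1 and Ncoa6, of which Men1 and Ncoa6 are named here after their values were seen.

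**Figure D2:**
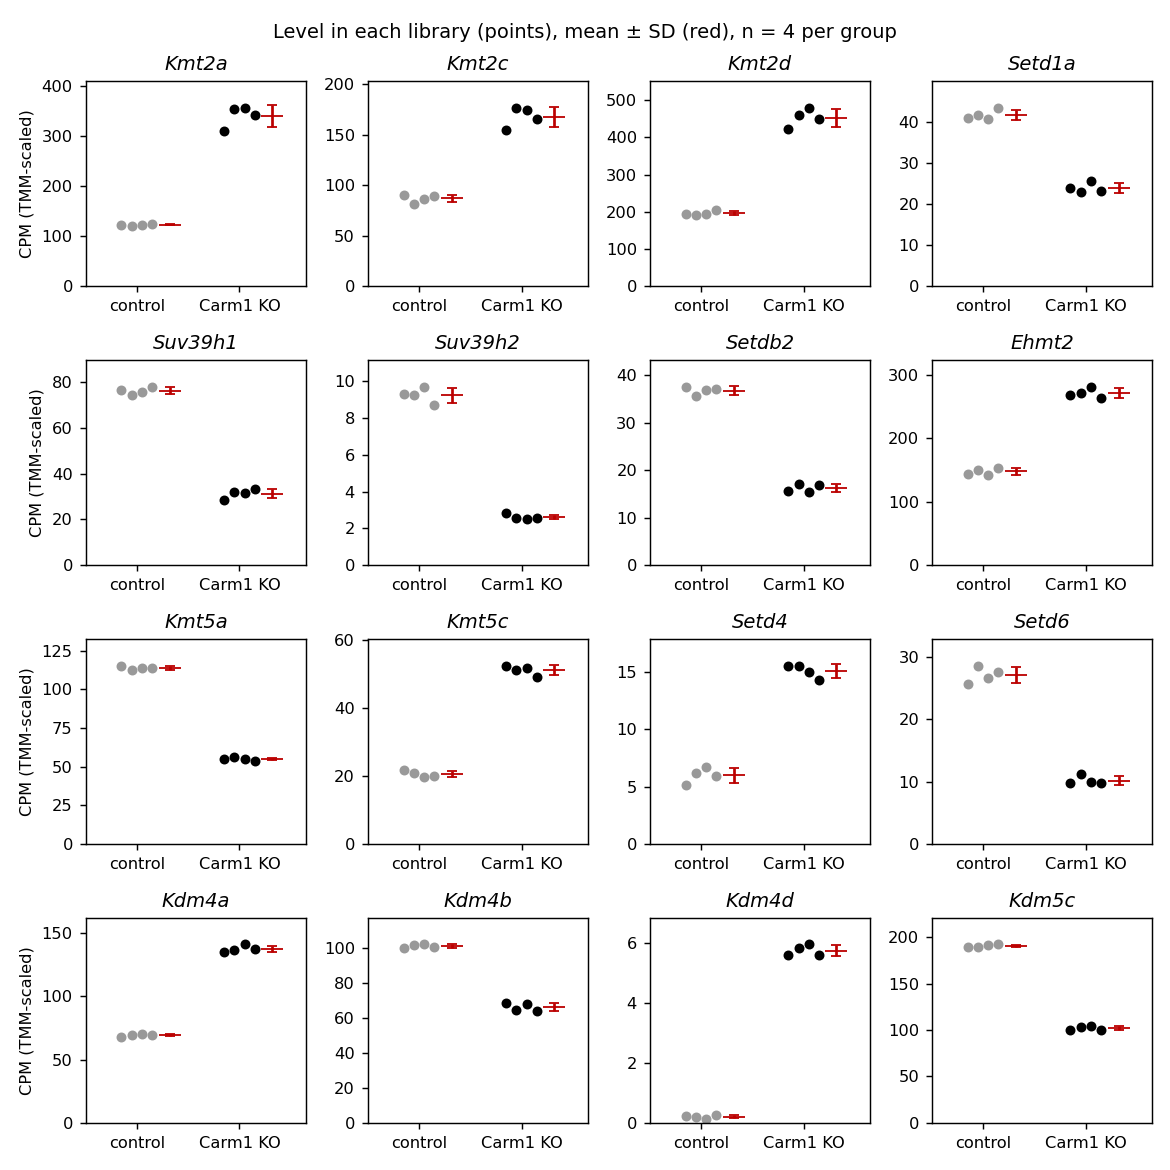
CPM in each of the 8 libraries for 16 enzymes, 1 panel per gene, with control libraries in grey, Carm1 KO libraries in black, the mean ± SD in red and the y axis starting at 0. Kdm6a, Kmt2b and Setd2, the enzymes whose ranges overlapped, are not among the 16 shown. That the control and Carm1 KO points of the 16 do not overlap therefore follows from the choice of genes. Ranges did not overlap for 39 of the 42 enzymes and for 83.4% of all tested genes. Kdm4d is at 0.136 to 0.273 CPM in control and 5.59 to 5.95 CPM in Carm1 KO libraries.

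The H3K9 writers fell, apart from Ehmt2. Of 6 genes 5 fell and 1 rose, and their median change was -0.87 on the log2 scale. With upper-quartile factors 4 fell, 1 rose and Ehmt1 did not pass (adjusted p = 0.10). Suv39h1 and Suv39h2, the paired enzymes that trimethylate H3K9 in pericentric heterochromatin, both fell at least 2-fold. Suv39h1 (ENSMUSG00000039231, chrX:8061171-8074760, minus strand) was at 76.7, 74.4, 75.8 and 78.01 CPM in the control libraries and 28.7, 31.8, 31.5 and 33.2 CPM in the Carm1 KO libraries. The 2 groups lay far apart, and the fall was 2.44-fold (log2 fold change -1.28, SE 0.0331, adjusted p = 1.5e-30). Suv39h2 (ENSMUSG00000026646, chr2:3455815-3475031, minus strand) was at 9.32, 9.24, 9.72 and 8.71 CPM in the control libraries and 2.82, 2.57, 2.52 and 2.58 CPM in the Carm1 KO libraries. This was the deepest fall among the 42 genes, 3.52-fold (log2 fold change -1.81, SE 0.0762, adjusted p = 4.3e-24), from a low level. Suv39h2 shares 357 of its 4410 exon bases with Dclre1c on the opposite strand, and the library kit does not mark strand. Dclre1c rose from 11.9 ± 0.577 to 17.6 ± 0.992 CPM, opposite to Suv39h2.

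The Setdb enzymes and Ehmt1 also went down, and Ehmt2 alone went up. Setdb1, which trimethylates H3K9 at retroelements together with Trim28, fell from 80.9 ± 1.89 to 54.98 ± 0.941 CPM (log2 fold change -0.56, SE 0.0265, adjusted p = 3.1e-22). Its paralog Setdb2 was at 37.6, 35.6, 36.8 and 37.1 CPM in the control libraries and 15.6, 17.1, 15.3 and 16.9 CPM in the Carm1 KO libraries, without overlap and 2.27-fold lower (log2 fold change -1.18, SE 0.0417, adjusted p = 9.5e-27). Ehmt1 and Ehmt2 encode GLP and G9a, which work as a pair on H3K9 mono- and dimethylation in euchromatin. Ehmt1 fell from 75.2 ± 1.41 to 62.8 ± 1.68 CPM (log2 fold change -0.26). Ehmt2 (ENSMUSG00000013787, chr17:34898469-34914052, plus strand) was at 144, 151, 143 and 154 CPM in the control libraries and 269, 271, 281 and 264 CPM in the Carm1 KO libraries, and every Carm1 KO library lay above every control library (log2 fold change 0.88, SE 0.0249, adjusted p = 2.4e-29). Per kilobase, the 6 H3K9 writers summed to 73.6 ± 0.805 CPM per kb in control and 75.7 ± 1.41 CPM per kb in Carm1 KO libraries, of which Ehmt2 made up 26.9 and 49.4.

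Readers and cofactors of H3K9 methylation mostly fell as well. Of 10 such genes 7 fell, 1 rose and 2 missed the threshold (median -0.41 on the log2 scale). With upper-quartile factors 6 fell and 3 rose. Uhrf1, which reads methylated H3K9 and brings the maintenance DNA methyltransferase to replicating DNA, fell from 222 ± 3.61 to 29.0 ± 1.24 CPM (log2 fold change -2.94). Trim28, the corepressor that recruits Setdb1, fell from 444 ± 6.71 to 291 ± 10.2 CPM (log2 fold change -0.61). Atf7ip, which stabilises Setdb1, was the member that rose, from 91.3 ± 1.87 to 178 ± 6.91 CPM (log2 fold change 0.96).

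The H4K20 writers Kmt5a and Kmt5c changed in opposite directions. Kmt5a adds the first methyl group to H4K20 and is linked to mitosis, and Kmt5b and Kmt5c add the further ones. The RefSeq promoters of both, 250 bases before to 50 bases after the transcription start on GRCm38.p6, are shown because this pair exchanged order, with the only letters of the searched motifs that either holds in capitals.
Kmt5a, chr5:124439680-124439979, plus strand: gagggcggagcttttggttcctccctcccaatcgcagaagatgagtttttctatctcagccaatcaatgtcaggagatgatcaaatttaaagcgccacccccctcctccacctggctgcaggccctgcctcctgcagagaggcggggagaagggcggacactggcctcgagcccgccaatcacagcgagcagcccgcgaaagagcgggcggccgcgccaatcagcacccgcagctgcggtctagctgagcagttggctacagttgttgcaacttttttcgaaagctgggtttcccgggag
Kmt5c, chr7:4739877-4740176, plus strand: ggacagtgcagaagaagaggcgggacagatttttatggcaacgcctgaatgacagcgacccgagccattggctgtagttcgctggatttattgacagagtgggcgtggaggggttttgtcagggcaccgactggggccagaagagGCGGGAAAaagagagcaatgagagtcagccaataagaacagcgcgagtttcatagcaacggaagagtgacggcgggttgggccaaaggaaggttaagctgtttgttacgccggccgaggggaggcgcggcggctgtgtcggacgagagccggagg
The capitals in Kmt5c are GCGGGAAA, the reverse complement of the E2F-like motif TTTCCCGC, which starts 105 bases before the start site. Searched on both strands, TTTCCCGC was in 1.07% of 32851 RefSeq promoters of the same length. Counted by gene, it was in the promoters of 1.24% of all genes and of 1 of the 31 enzymes that had a promoter in the table. The printed Kmt5a window, 1 of 3 that RefSeq lists for it, holds none of the 5 motifs searched.

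Kmt5a (ENSMUSG00000049327, chr5:124439930-124462308, plus strand) was at 115, 112, 113 and 114 CPM in the control libraries and 55.2, 55.98, 55.1 and 53.9 CPM in the Carm1 KO libraries. The Carm1 KO libraries were 2.07-fold lower, with no overlap (log2 fold change -1.05, SE 0.0247, adjusted p = 5.0e-33). Kmt5c (ENSMUSG00000059851, chr7:4740115-4747514, plus strand) was at 21.7, 20.9, 19.7 and 20.04 CPM in the control libraries and 52.6, 51.1, 51.9 and 49.3 CPM in the Carm1 KO libraries, 2.49-fold higher (log2 fold change 1.31, SE 0.0366, adjusted p = 2.0e-30). Every Carm1 KO library thus lay above every control library for Kmt5c and below for Kmt5a. Kmt5b fell from 78.95 ± 2.07 to 60.9 ± 2.01 CPM (log2 fold change -0.38). Per kilobase, Kmt5a was 4.17 ± 0.171 times Kmt5c in control libraries and 0.810 ± 0.0178 times Kmt5c in Carm1 KO libraries.

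The H3K36 writers changed little. Of 4 genes 2 rose and 2 fell, and none changed at least 2-fold. Nsd3, a dimethylating enzyme of H3K36, had the highest level per kilobase of all 42 genes in control cells and fell from 525 ± 5.59 to 409.8 ± 10.3 CPM (log2 fold change -0.36, SE 0.0221, adjusted p = 2.0e-18). Its relatives Nsd1 and Nsd2 changed by 0.15 and -0.11 on the log2 scale, and with upper-quartile factors Nsd2 turned to 0.11. Setd2, the enzyme of H3K36 trimethylation, was at 96.8 ± 1.45 and 104 ± 4.60 CPM, with overlapping ranges (log2 fold change 0.10).

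The 6 remaining writers, whose histone substrate is weak, disputed or absent, held a strong rise and a strong fall. Setd4, about whose substrate reports differ, was at 5.17, 6.20, 6.70 and 5.95 CPM in the control libraries and 15.5, 15.6, 14.997 and 14.3 CPM in the Carm1 KO libraries. It rose 2.52-fold with no overlap (log2 fold change 1.33, SE 0.0628, adjusted p = 2.3e-22). Setd6, which methylates the NF-kappaB subunit RelA, was at 25.7, 28.6, 26.6 and 27.6 CPM in the control libraries and 9.76, 11.2, 9.92 and 9.80 CPM in the Carm1 KO libraries. It fell 2.67-fold, the deepest after Suv39h2 (log2 fold change -1.42, SE 0.0497, adjusted p = 7.7e-27). Kmt2e, an MLL relative without clear enzymatic activity, rose from 139.5 ± 1.98 to 199 ± 12.5 CPM (log2 fold change 0.51), and 972 of its 10444 exon bases are shared with Srpk2 on the opposite strand. Setd7, a monomethylating enzyme of H3K4 and of many non-histone proteins, rose from 107 ± 3.13 to 141 ± 2.58 CPM (log2 fold change 0.40). Setd5 rose by 0.15, and Setd3, an actin histidine methyltransferase, fell by 0.06 on the log2 scale (edgeR adjusted p = 0.034). The call on Setd3 was lost without control replicate 3, Carm1 KO replicate 2 or Carm1 KO replicate 4 (adjusted p = 0.058, 0.090 and 0.061), and its sign turned with library totals alone (log2 fold change 0.11).

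Writers outside the 42 genes also moved both ways. Of 9 tested genes of other methyltransferase families 3 rose, 5 fell and 1 missed the threshold (median -0.48 on the log2 scale). Smyd5 fell from 87.7 ± 2.38 to 14.7 ± 1.10 CPM (log2 fold change -2.58), a larger change than in any of the 25 writers. Prdm9, the H3K4 and H3K36 methyltransferase of meiosis, rose from 3.43 ± 0.244 to 7.61 ± 0.704 CPM. Dot1l, the H3K79 methyltransferase, and Prdm2 fell by 0.48 and 0.49 on the log2 scale. Of 11 genes of Polycomb repressive complex 2, which methylates H3K27, 7 fell, 3 rose and 1 missed the threshold, and the split was 6 and 4 with upper-quartile factors. The histone-binding subunits Rbbp7 and Rbbp4 fell from 417 ± 2.92 to 127 ± 2.87 CPM and from 311 ± 6.39 to 180 ± 1.23 CPM. The accessory subunit Phf1 rose from 31.98 ± 1.26 to 76.4 ± 2.86 CPM.

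Among the erasers of H3K4, 3 rose and 2 fell under every scaling tried, with none at 2-fold. The Kdm5 family removes H3K4 trimethylation. Kdm5c (ENSMUSG00000025332, chrX:152233020-152274535, plus strand), an X-linked member that escapes X inactivation, was at 189, 189, 191 and 192 CPM in the control libraries and 100.1, 104, 104 and 100.5 CPM in the Carm1 KO libraries. It fell 1.86-fold, the largest fall of any eraser (log2 fold change -0.90, SE 0.0235, adjusted p = 2.0e-31). Kdm5a rose from 121 ± 2.03 to 182 ± 5.07 CPM (log2 fold change 0.58, SE 0.0242, adjusted p = 3.1e-24) and Kdm5b from 108 ± 1.34 to 134 ± 3.29 CPM (log2 fold change 0.31). Per kilobase, Kdm5a was at 0.320 ± 0.00652 times Kdm5c in control and at 0.892 ± 0.0201 times in Carm1 KO libraries. Kdm1a (LSD1), which removes mono- and dimethylation as part of corepressor complexes, fell from 117 ± 2.78 to 97.2 ± 1.95 CPM, and its paralog Kdm1b rose from 22.2 ± 0.539 to 27.9 ± 0.455 CPM (log2 fold changes -0.27 and 0.33).

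Partners of LSD1 moved both ways. Of 11 tested partners 6 rose, 3 fell and 2 missed the threshold (median 0.53 on the log2 scale). Gfi1, the zinc finger repressor that brings LSD1 to its targets in blood cells, rose from 23.6 ± 0.624 to 128 ± 4.49 CPM (log2 fold change 2.44). The deacetylases of the complex fell, Hdac2 from 133 ± 0.746 to 61.3 ± 2.17 CPM (log2 fold change -1.12) and Hdac1 from 262 ± 5.75 to 169 ± 3.30 CPM (log2 fold change -0.64).

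The erasers of H3K9 and H3K36 held the largest change among the 42. Of 10 genes 6 rose and 4 fell (median 0.31 on the log2 scale), and the split was 7 and 3 with upper-quartile factors. Kdm4d (ENSMUSG00000053914, chr9:14462548-14500482, minus strand), a short H3K9 demethylase of the JMJD2 family best known from the testis, had 31 counts in all control libraries together and 938 in all Carm1 KO libraries. Its level was 0.228, 0.190, 0.136 and 0.273 CPM in the control libraries and 5.60, 5.84, 5.95 and 5.59 CPM in the Carm1 KO libraries. All 4 control libraries were under 1 CPM and all 4 Carm1 KO libraries above 5 CPM, with a fitted rise of 27.3-fold (log2 fold change 4.77, SE 0.156, adjusted p = 5.5e-28). Kdm4d passed the filter on low counts only through its level in the Carm1 KO libraries, so this p-value is no independent support for the rise. The size of the fold rests on a very low control level. The annotated pseudogene Kdm4dl had 1 count in the control and 24 in the Carm1 KO libraries. Per kilobase Kdm4d was the lowest of the 42 in control cells, at 0.0723 CPM per kb, and with 2.01 CPM per kb still next to the lowest in Carm1 KO cells. The promoters of Kdm4d and of Suv39h2, the largest rise and the largest fall among the 42 genes, read as follows, in the same window and with the CRE motif TGACGTCA of Suv39h2 in capitals.
Kdm4d, chr9:14500433-14500732, minus strand: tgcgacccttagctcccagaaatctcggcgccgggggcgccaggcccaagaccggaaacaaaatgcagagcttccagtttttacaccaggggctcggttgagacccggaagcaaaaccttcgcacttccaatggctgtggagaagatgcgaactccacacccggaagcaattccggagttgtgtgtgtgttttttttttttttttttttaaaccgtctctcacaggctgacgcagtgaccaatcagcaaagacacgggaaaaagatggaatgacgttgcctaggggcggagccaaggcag
Suv39h2, chr2:3474937-3475236, minus strand: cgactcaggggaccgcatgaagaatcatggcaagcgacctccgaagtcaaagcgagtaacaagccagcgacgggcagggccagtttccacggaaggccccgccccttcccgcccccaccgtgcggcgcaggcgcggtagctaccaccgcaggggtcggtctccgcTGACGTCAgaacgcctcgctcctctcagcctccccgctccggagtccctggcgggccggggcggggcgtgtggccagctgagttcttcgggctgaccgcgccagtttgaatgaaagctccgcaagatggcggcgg
The motif in Suv39h2 starts 85 bases before the start site, and 1.79% of all RefSeq promoters hold it on either strand. The Kdm4d window held no match to the motifs searched. It had 17 CpG dinucleotides and a GC content of 52.7%, the Suv39h2 window 33 and 68.3%. The median over 43 promoter windows of the enzymes was 28 CpG and 63.7% GC, against 7 CpG and 52.7% GC over all promoters. All promoters include those of genes not expressed here, whereas every enzyme was expressed, so the sets are not alike.

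Other Kdm4 enzymes, which remove H3K9 and H3K36 trimethylation, moved in opposite directions. Kdm4a was at 68.2, 69.7, 70.6 and 69.4 CPM in the control libraries and 135, 136, 141 and 138 CPM in the Carm1 KO libraries, a rise of 1.98-fold with no overlap (log2 fold change 0.98, SE 0.0248, adjusted p = 5.6e-32). Kdm4b fell from 101 ± 0.939 to 66.5 ± 2.27 CPM (log2 fold change -0.61, SE 0.0257, adjusted p = 5.6e-24), so that Kdm4a went from 0.581 ± 0.00489 to 1.75 ± 0.0678 times Kdm4b per kilobase. Kdm4c rose slightly, from 43.7 ± 0.733 to 50.3 ± 1.94 CPM (log2 fold change 0.20). Kdm3a and Kdm3b, which remove H3K9 mono- and dimethylation, were at nearly equal levels per kilobase in control cells, with a ratio of 0.986 ± 0.0282. Kdm3b rose from 108 ± 2.22 to 169.6 ± 4.60 CPM, and Kdm3a was at 123 ± 3.35 and 114 ± 2.29 CPM (log2 fold change -0.10, turning to 0.11 with upper-quartile factors). The H3K36 demethylase Kdm2a fell from 199 ± 3.60 to 147 ± 5.24 CPM and its paralog Kdm2b, which also brings a Polycomb complex to CpG islands, rose from 40.3 ± 1.19 to 70.04 ± 3.63 CPM. Kdm7a rose by 0.41 and Kdm8, the enzyme with the least settled activity, fell by 0.37 on the log2 scale.

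**Figure D3:**
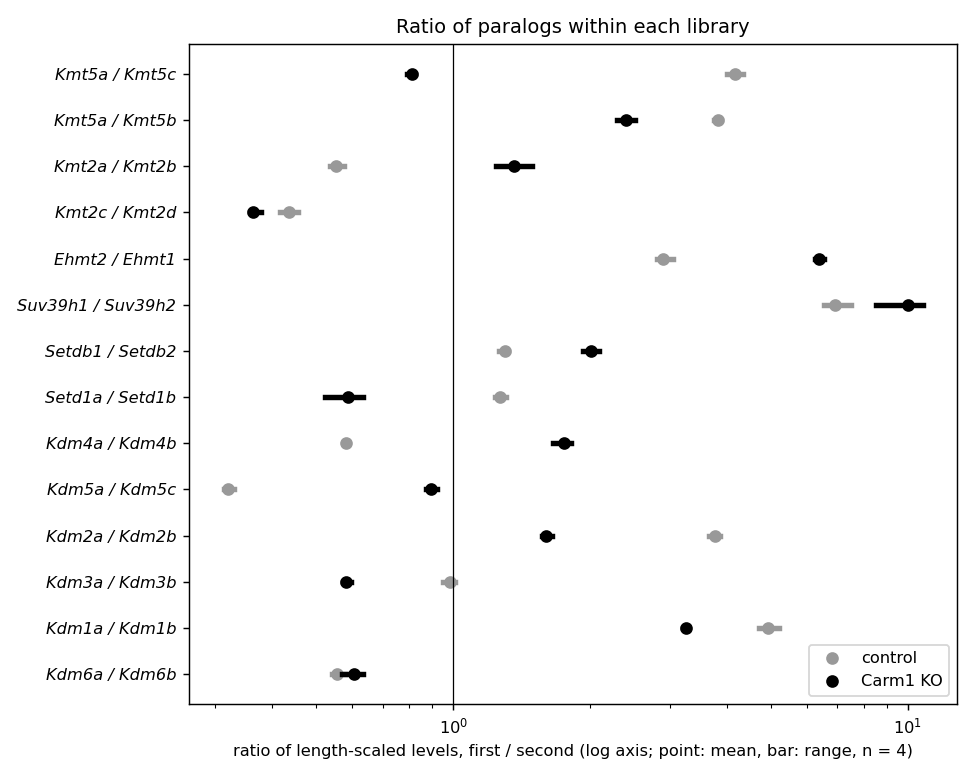
Ratio of the 2 members of each of 14 pairs of enzymes with related names, per kilobase of exon, in control and Carm1 KO libraries, on a log axis with a line at 1. The order of the 2 members is reversed in Kmt5a/Kmt5c, Kmt2a/Kmt2b, Kdm4a/Kdm4b and Setd1a/Setd1b, and the ranges overlap between groups for Kdm6a/Kdm6b. The order in Setd1a/Setd1b rests on the full exon length of Setd1a, much of which is shared with Gm49388.

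The Kdm6 enzymes, the only erasers grouped under H3K27 here, were nearly level. Kdm6a (UTX), on the X chromosome, was at 63.5 ± 1.71 and 63.1 ± 0.600 CPM (log2 fold change -0.01, edgeR adjusted p = 0.70), and the 2 groups overlapped. Kdm6b (JMJD3), which acts in effector gene activation in T cells, fell from 97.4 ± 0.789 to 88.9 ± 5.12 CPM (log2 fold change -0.13, SE 0.0293, adjusted p = 1.2e-04). Both directions depended on scaling, since upper-quartile factors gave log2 fold changes of 0.20 for Kdm6a and 0.08 for Kdm6b, both then called higher. Uty, the Y-linked relative of Kdm6a with weak activity, rose from 7.92 ± 0.215 to 33.8 ± 1.72 CPM (log2 fold change 2.09), next to a 3.45-fold rise of Ddx3y and a 4.20-fold rise of Eif2s3y, which lie on the same chromosome. These Y-linked genes and Xist, which rose 1.83-fold, are named here after their values were seen, and what they share with Kdm5c, Kdm6a and Suv39h1, which lie on the X chromosome, was not tested. Of 8 other JmjC genes, Uty included, 5 rose and 3 fell, or 6 and 2 with upper-quartile factors. Riox1 fell from 45.5 ± 1.58 to 18.7 ± 0.490 CPM, and the H3K9 demethylases Jmjd1c and Phf2 rose from 67.2 ± 0.942 to 108 ± 3.82 CPM and from 106 ± 2.17 to 137 ± 3.04 CPM.

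Enzymes with related names changed both in the same and in opposite directions. Of 14 pairs taken by name, not all of them close paralogs, 8 had members called in opposite directions. These numbered 6 with upper-quartile factors and 7 with library totals alone. Since 44.5% of all tested genes rose and 43.2% fell, opposite calls are common in pairs of any genes, and nothing particular to paralogs is read from the count. Other relatives were left out of the 14 pairs. Of these, Kdm5a rose with Kdm5b and Kdm4a with Kdm4c, while Kmt5b fell and Kmt5c rose. Per kilobase, 4 pairs exchanged order between the groups in all libraries. These were Kmt5a and Kmt5c, Kdm4a and Kdm4b, Kmt2a and Kmt2b, with 0.553 ± 0.0173 in control and 1.36 ± 0.101 in Carm1 KO libraries, and Setd1a and Setd1b, with 1.27 ± 0.0290 and 0.587 ± 0.0458. The order of this last pair rests on the full exon length of Setd1a. Of its 6795 exon bases 3523 are shared with Gm49388, and how reads there were counted is not known. A pair that kept its order and moved apart was Ehmt2 and Ehmt1, at 2.90 ± 0.103 and 6.39 ± 0.137. Kdm2a and Kdm2b drew closer, from 3.76 ± 0.109 to 1.600 ± 0.0373, and so did Kdm1a and Kdm1b, from 4.92 ± 0.224 to 3.24 ± 0.0385. A ratio within a library does not depend on its scaling.

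Levels per kilobase placed different enzymes at the top of the 2 groups. In control cells the order was Nsd3 at 31.8 ± 0.338 CPM per kb, then Ehmt2 at 26.9 ± 0.970 and Kdm5c at 26.8 ± 0.216, which did not differ beyond their spread, Kdm1a at 22.6 ± 0.536 and Kmt5a at 21.4 ± 0.249. Of these, Kdm5c and Kmt5a dropped out of the first 10 in Carm1 KO cells, where Ehmt2 led with 49.4 ± 1.32 CPM per kb. Nsd3 followed at 24.8 ± 0.626, and Kdm3b at 23.8 ± 0.647, Kdm4a at 23.8 ± 0.468 and Kmt2d at 22.7 ± 1.21 lay within their spread of each other. Suv39h2 was the lowest in Carm1 KO cells, at 0.595 ± 0.0303 CPM per kb. The 25 writers summed to 273 ± 1.59 CPM per kb in control and 297 ± 8.40 in Carm1 KO libraries, and the 17 erasers to 187 ± 0.711 and 193 ± 3.53. Within a library the writers were 1.45 to 1.46 times the erasers in the control group and 1.52 to 1.57 times in the Carm1 KO group. Most of the rise in the writers' sum was that of Ehmt2 alone, from 26.9 to 49.4 CPM per kb. The higher ratio therefore does not describe the writers as a class.

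**Figure D4:**
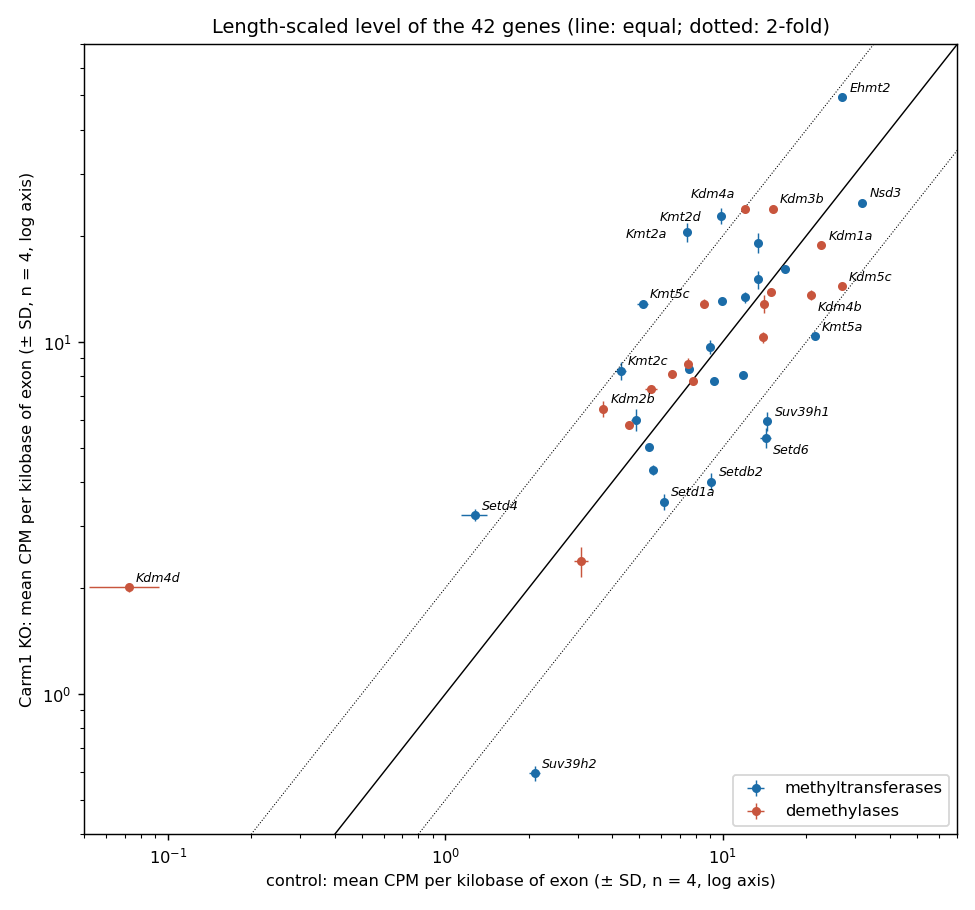
Mean CPM per kilobase of exon of the 42 enzymes in control (x axis) and Carm1 KO libraries (y axis), both on log scales, with bars of 1 SD, a solid line at equal levels and dotted lines at 2-fold. Most enzymes lie between the dotted lines, and Kdm4d, Suv39h2 and Kmt2a lie outside them.

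Counts by exon length are a description, and their difference was not tested. Of 17 enzymes with at least 10000 exon bases 13 rose and 4 fell, and of 25 shorter ones 9 rose, 15 fell and 1 did not pass. Over all tested genes of at least 10000 exon bases 456 of 945 rose, 48.3%, and of shorter ones 6211 of 14025, 44.3%. Across the 42 genes, which share the same 8 libraries, Pearson's r between log2 exon length and log2 fold change was 0.10 and Spearman's rho 0.27, against -0.02 and -0.03 over all tested genes. Libraries of a group were close, with a median coefficient of variation over the enzymes of 2.32% in control and 3.22% in Carm1 KO libraries, and a highest value of 28.1% for Kdm4d in control and 9.52% for Kdm8 in Carm1 KO libraries. Carm1 KO replicate 1 was the lowest of its group for 27 of the 42 enzymes. Over all 42, its median difference from the mean of the other Carm1 KO libraries was -0.05 on the log2 scale. No call on an enzyme changed without this library.

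Genes tied to the substrates of the enzymes mostly fell. Of 17 genes listed for S-adenosylmethionine and 2-oxoglutarate supply 12 fell, 4 rose and 1 missed the threshold (median -0.56 on the log2 scale). Of all tested genes 43.2% fell. With upper-quartile factors 10 of the listed genes fell and 6 rose. The list also holds genes that use up or recycle these compounds, so a fall of a gene is not always one in supply. The folate-cycle genes Mthfd1 and Shmt2, which feed methyl groups into this supply, fell from 252 ± 3.78 to 24.9 ± 0.591 CPM (log2 fold change -3.34) and from 466 ± 6.89 to 75.2 ± 1.26 CPM (log2 fold change -2.63). Idh2, a mitochondrial source of 2-oxoglutarate, rose from 52.5 ± 1.11 to 149 ± 3.21 CPM, 2.83-fold higher. Glud1, another such source, was at 276 ± 2.93 and 252 ± 7.52 CPM.

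Cell cycle genes parted by phase in the same libraries. All 15 S phase genes fell and all 15 G2/M genes rose, under each scaling tried, with median log2 fold changes of -2.10 and 1.43. Mcm2, a subunit of the replicative helicase, fell from 539 ± 3.74 to 58.9 ± 1.38 CPM, and Ube2c, an enzyme of mitotic exit, rose from 8.16 ± 0.744 to 61.3 ± 1.99 CPM. The part of cell cycle differences in the values of the enzymes was not tested.

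**Figure D5:**
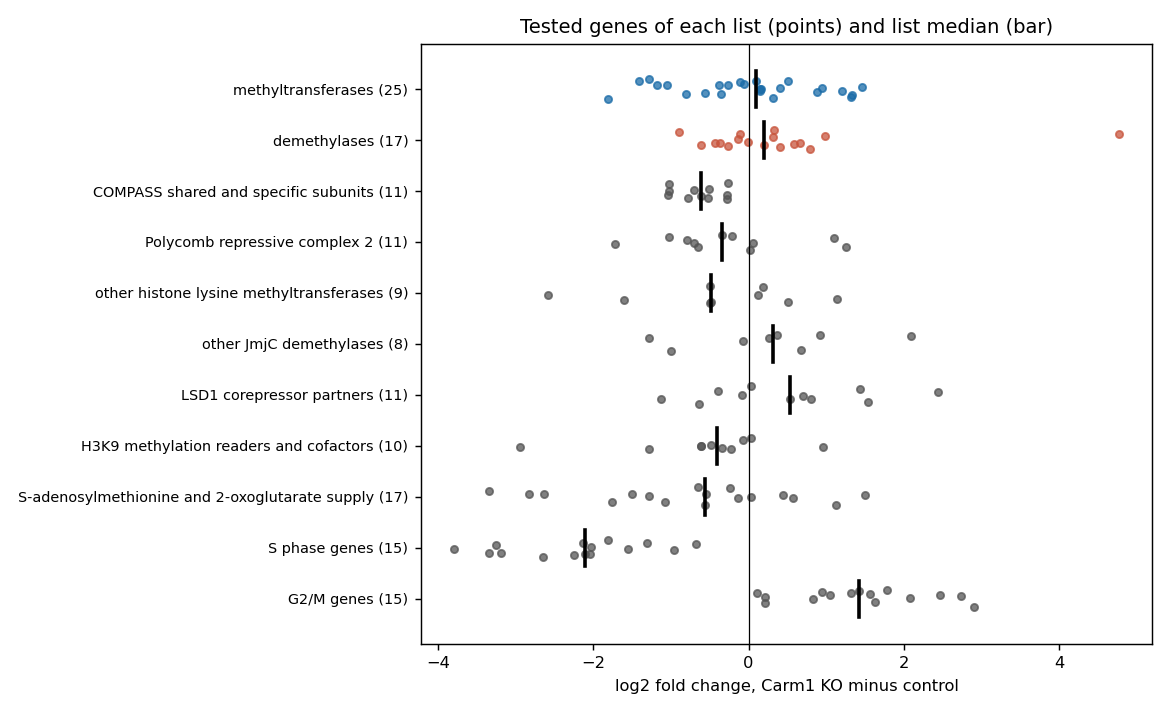
Log2 fold change, Carm1 KO minus control, of each tested gene in 9 related lists and in the writers and erasers, with 1 point per gene and a bar at the median of the list. The COMPASS subunits lie below 0 with a median of -0.61, the S phase genes lie below 0 and the G2/M genes above 0.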

How the data were processed

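Whole-number counts for each Ensembl gene were used as deposited. According to the labels, the authors obtained these counts with RSEM, and the submitters' processing notes name mm10. Neither the aligner nor the annotation, strand setting or any version is given in the sources used here, nor how RSEM estimates became whole numbers. Libraries were made with a TruSeq v2 kit, per the labels' protocols, from RNA of integrity number above 9.5 and read as 150 bp pairs. No batch is given. Reads on exon bases shared by overlapping genes may have been counted for either gene or for neither, and which holds is not known. Of the 42 enzymes 16 have such bases, and their levels could be too high or too low for it.

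Groups came from the source names and replicate numbers from the titles. GENCODE M21 gave symbols for 49056 of 49315 genes. The pattern matched 45 genes, of which a pseudogene, an antisense gene and Kdm5d were left out. The filter filterByExpr kept 14970 genes. TMM factors ran from 0.938 to 0.953 for control and from 1.05 to 1.07 for Carm1 KO libraries. The test was edgeR's robust quasi-likelihood F test (version 4.0.16, R 4.3.3), two-sided, with Benjamini-Hochberg adjustment over all genes kept and a threshold of 0.05. SE is the size of the log2 fold change over the root of F. CPM use TMM-scaled totals, and CPM per kb divide by the deposited exon length. Chi-square per degree of freedom was 1.45 to 13.5 for the 12 pairs of libraries within groups, so none was a copy. Alternatives were the use of upper-quartile or RLE factors or of library totals alone, no filter, a filter of 5 CPM in 4 libraries, DESeq2 1.42.0, limma-voom (limma 3.58.1), a test against 1.5-fold, the replicate number as a block and each library left out. Simulated counts with known changes were used to test the edgeR script. In them 14770 of 14970 genes were unchanged, so they cannot show how the scaling behaves where most genes change, as here. Promoters came from RefSeq, GRCm38.p6, which held 31 of the 42 enzymes. The motifs searched on both strands were TTTCCCGC, TTTGGCGC, CCGGAAGT, TGACGTCA and CACGTG.

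The enzymes, lists and tests were chosen with earlier results of these data known. The text names any of the 42 enzymes, Carm1, and from each related or marker list the 2 highest genes by mean CPM and, for related lists, those with the highest and lowest log2 fold change. Genes named outside this rule are said to be so, or mark or define a cell type or overlap an enzyme. Some single marker genes are not reported here.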

Additional observations from a re-analysis of the deposited data

Results flagged for a closer look

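In 5 of 84 groups of 4 libraries, 1 library lay far from the other 3 by Dixon's ratio, the gap to its nearest neighbour over the whole range of the group, past its critical value. Chance gives about 1 in 20 groups. Among control libraries, replicate 4 was high for Kmt2d, at 204 CPM against 193 to 194 (ratio 0.908), and replicate 1 was high for Kdm7a, at 59.2 CPM against 53.9 to 54.5 (ratio 0.881). Among Carm1 KO libraries, replicate 1 was low for Kdm5a, at 174 CPM against 184 to 185 (ratio 0.891), and high for Kdm1a, at 100.12 CPM against 96.0 to 96.7 (ratio 0.842). Replicate 2 was high for Setd6, at 11.2 CPM against 9.76 to 9.92 (ratio 0.882). In each case the control and Carm1 KO libraries did not overlap.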

How the results depend on the processing

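Of the 42 enzymes 36 kept call and direction in every alternative except the test against a 1.5-fold change, and 17 passed that test. The other 6 were Ehmt1, Kdm3a, Kdm6a, Kdm6b, Nsd2 and Setd3. RLE factors, DESeq2 and limma-voom changed no call on an enzyme. Upper-quartile factors and library totals alone gave 9 and 8 enzymes at least 2-fold higher, with 3 and 2 among the erasers. Upper-quartile factors gave 3 at least 2-fold lower, all of them writers. Signs turned with upper-quartile factors, library totals alone and, where given, the 5 CPM filter for Kdm6a (log2 fold changes 0.20, 0.15 and 0.082), Setd3 (0.16, 0.11 and 0.038), Kdm3a (0.11 and 0.056), Kdm6b (0.083 and 0.029) and Nsd2 (0.11 and 0.050). The test against 1.5-fold called 3992 genes higher and 3444 lower, 10 and 7 of them enzymes, 6 and 6 writers, 4 and 1 erasers. With the 5 CPM filter 1543 genes were at least 2-fold higher and 1270 lower among 10171 tested, and 2 erasers were at least 2-fold higher. Without 1 library at a time, 22 enzymes rose and 18 to 19 fell. The replicate numbers did not pair the libraries (correlations of same-numbered libraries -0.0848 to -0.0509, 0 of 4 best with their own number), and the replicate block gave 22 enzymes higher and 18 lower, Setd3 being lost. Depth limits Kdm4d most, with 31 counts over the control libraries.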
